A study of Mus musculus with 6 samples.

Results

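The 4 genes described here encode proteins that withhold metals from microbes: S100a8 and S100a9, the subunits of calprotectin, Lcn2, which encodes lipocalin-2, and Ltf, which encodes lactoferrin. They were taken by symbol, 4 of the 18477 genes of the deposited table, and all 4 passed the filter on low counts that left 14579 genes for testing. Male C57BL/6 mice aged 6 to 8 weeks drank water with 2% dextran sulfate sodium (DSS), which damages the lining of the colon, from day 8 to day 14. The DSS group (n = 3) received PBS by oral gavage daily for 14 days, and the DSS+BV group (n = 3) received the gut bacterium *B. vulgatus* in PBS on the same days. Colon RNA of each mouse was sequenced as 1 library. Mice without DSS were not analysed here, so every level is a level within colitis, and both groups carry the DSS treatment. The study asked how the bacterium altered expression in the inflamed colon.

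Calprotectin is a heterodimer of S100A8 and S100A9 that binds zinc, manganese and other transition metals, and it makes up a large part of the neutrophil cytosol. Lipocalin-2 binds bacterial siderophores, the small molecules with which bacteria take up iron, and is made by neutrophils and by inflamed epithelium. Lactoferrin binds ferric iron itself and is stored in the specific granules of neutrophils and secreted by glandular epithelium. Faecal calprotectin, lactoferrin and lipocalin-2 are used as measures of gut inflammation.

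The members move together in part, so the bases before their start sites are shown first, from RefSeq on GRCm38.p6, the build that the submitters' processing notes name. All 4 genes were matched. S100a8 and S100a9 lie close together on chromosome 3, on opposite strands, with start sites 26650 bases apart. Lcn2 lies on chromosome 2 and Ltf on chromosome 9. In the 250 bases before each start site, letters of the form TTNNGNAA were searched on both strands, as the core of sites for C/EBP factors, which act in neutrophil maturation. Matches are in capitals, each run is written 5′ to 3′ on the gene's strand, and for S100a8, S100a9 and Ltf bases that GENCODE M21 annotates as exon are left out.
S100a8, chr3:90668821-90668977, plus strand: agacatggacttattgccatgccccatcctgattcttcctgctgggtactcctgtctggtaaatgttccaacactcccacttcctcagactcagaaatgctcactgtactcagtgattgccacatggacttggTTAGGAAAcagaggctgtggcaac
S100a9, chr3:90695722-90695971, minus strand: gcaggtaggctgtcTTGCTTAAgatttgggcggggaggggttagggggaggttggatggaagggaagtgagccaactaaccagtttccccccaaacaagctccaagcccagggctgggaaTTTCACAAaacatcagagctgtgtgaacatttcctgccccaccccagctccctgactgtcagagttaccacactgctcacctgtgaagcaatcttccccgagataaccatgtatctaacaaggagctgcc
Ltf, chr9:111019042-111019270, plus strand: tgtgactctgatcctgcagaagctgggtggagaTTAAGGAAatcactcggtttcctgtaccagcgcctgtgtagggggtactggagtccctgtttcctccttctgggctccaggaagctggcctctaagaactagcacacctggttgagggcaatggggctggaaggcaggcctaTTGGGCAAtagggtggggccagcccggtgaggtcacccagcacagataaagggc

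The upstream bases of Lcn2 are largely exon of other Lcn2 transcripts, so only 30 bases around its match are given, and these 30 bases lie inside an exon of a coding Lcn2 transcript (chr2:32387851-32388093).
Lcn2, chr2:32387937-32387966, minus strand: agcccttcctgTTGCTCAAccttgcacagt

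Counted from the start site, with -1 the base just before it, the match lay at -117 to -110 in S100a8 and at -216 to -209 in Lcn2. S100a9 held matches at -236 to -229 and -130 to -123, and Ltf at -217 to -210 and -75 to -68. All 4 members held at least 1 match, as did 36.8% of the 32851 upstream windows of the same length in RefSeq. TATAAA was present in 1 of the 4, S100a8, and in 12.4% of all windows. A STAT-type motif, TTCNNNGAA, and an NF-kB-type motif, GGGA and CC with any 4 bases between them, were in 0 of the 4, and in 7.02% and 17.6% of all windows. A match is a description of letters and not of a bound site.

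The libraries held 15293276 to 17254343 expected counts, so that 1 CPM (counts scaled to a common library size with TMM factors) stood for 15.2 to 17.2 counts. Libraries of a group were further apart than counting error alone gives (chi-square over degrees of freedom 42.7 to 118.1). The expected counts of the 4 members were whole in all 6 libraries. The colon identity of the tissue was checked with 14 epithelial markers, all 14 detected, and their summed level was 15934 to 26117 CPM in the DSS group and 27593 to 45472 CPM in the DSS+BV group, which did not overlap. Of these 14 markers, 6 were higher without overlap and 1 had a log2 fold change below 0. Muc2, the most abundant by mean, was at 5583 ± 4085 and 11948 ± 7611 CPM (SD, n = 3 each), with overlapping groups. Car1, with means of 934.7 and 6693 CPM, and Epcam, with 1359 and 1575 CPM, also overlapped. The fibroblast sum was 1915 to 2214 CPM in the DSS group and 856.1 to 1265 CPM in the DSS+BV group. The part of these shifts in the results below was not tested. In bulk tissue, fewer cells of a type and less RNA per cell cannot be told apart.

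The 4 genes were chosen with the results of DSS+BV against DSS known, so their levels are given as a description and no test is printed for them. Values of single mice are given throughout in the order of mice 1, 2 and 3 of each group. S100a8 (Entrez gene 20201) is a gene of 3 exons at chr3:90668978-90670035. It measured 46.3, 30.4 and 39.1 CPM in the DSS mice, against 1.85, 1.47 and 2.09 CPM in the DSS+BV mice. Every mouse given *B. vulgatus* lay far below every mouse given DSS alone, and within each group the highest level was no more than 1.52 times the lowest. Group means were 38.6 ± 7.98 CPM with DSS alone and 1.80 ± 0.313 CPM with the bacterium (SD, n = 3 each), giving a log2 fold change of -4.42 (standard error 0.256).

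S100a9 (Entrez gene 20202), which encodes the partner subunit, is a gene of 3 exons at chr3:90692632-90695721. It measured 40.4, 36.5 and 55.1 CPM in the DSS mice, against 3.10, 2.48 and 1.64 CPM in the DSS+BV mice. The groups again did not overlap, and the lowest DSS level was 11.8 times the highest DSS+BV level. Group means were 44.0 ± 9.80 and 2.41 ± 0.731 CPM (SD, n = 3 each), giving a log2 fold change of -4.19 (standard error 0.306).

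The balance of the calprotectin subunits varied between mice but did not separate the groups. The log2 ratio of S100a8 to S100a9 CPM was 0.20, -0.26 and -0.49 in the DSS mice, against -0.75, -0.76 and 0.34 in the DSS+BV mice. The spread within a group (SD 0.352 with DSS alone and 0.634 with the bacterium) was larger than the difference of the means, -0.20. The low DSS+BV values rest on 23 to 47 counts per gene and library, against 489 to 946 in the DSS group.

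Lcn2 (Entrez gene 16819) is a gene at chr2:32384633-32388252 with 6 exons in its longest coding transcript. It measured 35.6, 67.4 and 80.2 CPM in the DSS mice, against 8.51, 7.26 and 3.54 CPM in the DSS+BV mice. The groups did not overlap, although the lowest DSS library was only 4.19 times the highest DSS+BV library, a narrower gap than for the calprotectin genes. Group means were 61.1 ± 22.9 and 6.44 ± 2.58 CPM (SD, n = 3 each), giving a log2 fold change of -3.25 (standard error 0.437).

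Ltf (Entrez gene 17002), at chr9:111019271-111042767 with 17 exons in its longest coding transcript, behaved differently within the DSS group. It measured 18.3, 0.373 and 34.0 CPM in the DSS mice, against 2.11, 0.764 and 0.948 CPM in the DSS+BV mice. DSS 2 had the lowest level of all 6 libraries, so the groups overlapped. That value rests on 6 counts, and its exact Poisson 95% interval of 0.137 to 0.812 CPM, which covers counting error only, lay below that of DSS+BV 1 (1.44 to 2.98 CPM) but overlapped those of the other DSS+BV mice. Group means were 17.6 ± 16.8 and 1.27 ± 0.730 CPM (SD, n = 3 each). The log2 fold change of -3.78 had a standard error of 1.31, and it was -2.46 with limma-voom, which averages on the log scale, -4.35 without DSS 2 and -2.87 without DSS 3.

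**Figure D1:**
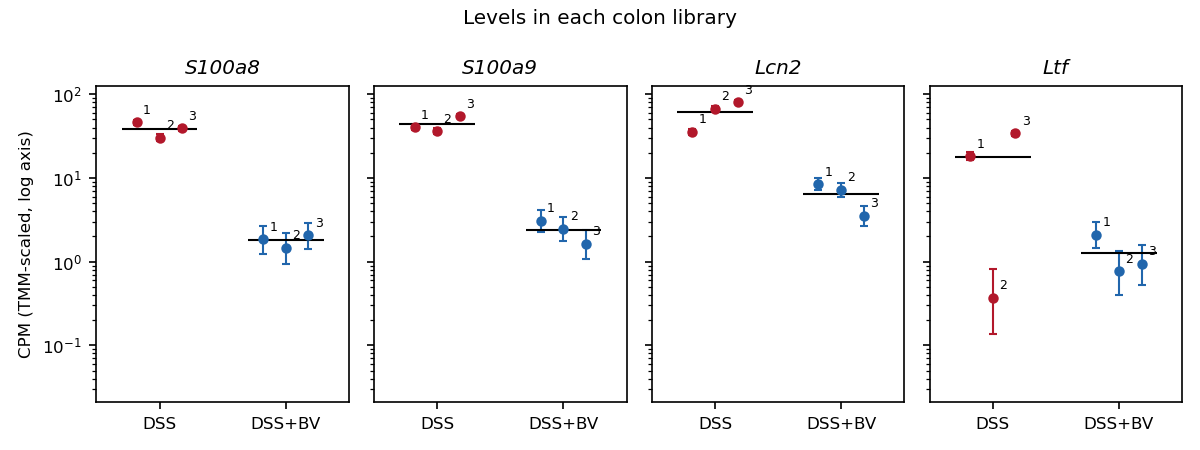
CPM (TMM-scaled, log axis) of S100a8, S100a9, Lcn2 and Ltf in each of the 3 DSS (red) and 3 DSS+BV (blue) libraries, with the mouse number beside each point, exact Poisson 95% intervals for counting error as bars and group means as lines. The groups are apart for S100a8, S100a9 and Lcn2, and for Ltf the library DSS 2, at 0.373 CPM, lies below the DSS+BV libraries.

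In all, 3 of the 4 genes were lower in each mouse given the bacterium than in any mouse without it, a separation that held for 11.3% of the tested genes, while 6.37% were higher without overlap. All 4 had log2 fold changes below 0, as had 51.5% of the tested genes. Since the genes were picked on this contrast, nothing is read from these counts. DSS 2 was also the lowest DSS mouse for S100a8 (30.4 CPM) and S100a9 (36.5 CPM), by a far narrower margin than for Ltf. For Lcn2, at 67.4 CPM, it lay above DSS 1.

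Levels were compared between genes per kilobase of the longest coding transcript in GENCODE M21 (486 bases for S100a8, 519 for S100a9, 915 for Lcn2 and 2743 for Ltf). In the DSS group the order was S100a9 at 84.8 ± 18.9, S100a8 at 79.5 ± 16.4, Lcn2 at 66.7 ± 25.1 and Ltf at 6.40 ± 6.14 CPM per kilobase (SD, n = 3). The levels of calprotectin and lipocalin-2 transcripts did not differ beyond their spread, and that of Ltf was lower in every mouse. In the DSS+BV group the order was Lcn2 at 7.04 ± 2.83, S100a9 at 4.64 ± 1.41, S100a8 at 3.70 ± 0.645 and Ltf at 0.465 ± 0.266 CPM per kilobase (SD, n = 3). Lcn2 was thus ahead of the calprotectin genes in these means, but its lowest library, at 3.87, lay within the range of S100a8 (3.02 to 4.29). Ltf was again the lowest in each mouse.

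The share of Lcn2 relative to S100a9 was higher in every DSS+BV mouse. The log2 ratio of their CPM was -0.18, 0.88 and 0.54 in the DSS mice, against 1.46, 1.55 and 1.11 in the DSS+BV mice, a difference of means of 0.96. Relative to S100a8 the ratio of Lcn2 was -0.38, 1.15 and 1.03 in the DSS mice and 2.204, 2.31 and 0.76 in the DSS+BV mice, which overlapped. Ltf relative to S100a8 ranged from -6.35 in DSS 2 to -0.20 in DSS 3 within the DSS group alone.

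Neutrophils are the main source of calprotectin in most inflamed tissue, and their markers were lower in the DSS+BV group as well. Of 11 neutrophil markers, all 11 were detected and had log2 fold changes below 0, from -4.32 for the collagenase Mmp8 to -1.40 for the surface protein Ly6g, and all but Ly6g (10 genes) were lower without overlap between groups. Ly6g made up 43.4% to 91.5% of their summed CPM, and the sum ran from 175.2 to 990.4 CPM in the DSS group and from 33.6 to 331.7 CPM in the DSS+BV group, which overlapped. Ly6g alone measured 484.6, 76.1 and 854.5 CPM in the DSS mice, against 302.6, 214.6 and 19.1 CPM in the DSS+BV mice. It thus did not follow the other markers, and what it reads in this tissue was not tested. Without Ly6g, the sum of the other 10 was 111.8, 99.1 and 136.0 CPM in the DSS mice. In the DSS+BV mice that sum was 29.1, 20.004 and 14.5 CPM.

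Relative to the sum of these 10 markers, calprotectin transcripts were lower in every DSS+BV mouse. The log2 ratio of S100a9 to their sum was -1.47, -1.44 and -1.30 in the DSS mice, against -3.23, -3.01 and -3.14 in the DSS+BV mice. The SD within groups was 0.0882 and 0.111, and the means differed by -1.72. For S100a8 the means differed by -1.92, with DSS+BV 3 the highest of its group at -2.79 and DSS 3 the lowest of its own at -1.80. For Lcn2 they differed by -0.77, and the groups overlapped, since DSS 1 at -1.65 lay below DSS+BV 2 at -1.46. For Ltf they differed by 0.08, with a range from -8.05 in DSS 2 to -1.999 in DSS 3. The markers themselves were unevenly lower: Mmp8 had a log2 fold change of -4.32, close to the calprotectin genes at -4.42 and -4.19. Csf3r, the most abundant of the 10 by group mean, had -1.85. Such a ratio, and whether it separates the groups, thus depends on which markers enter the sum. The members were chosen on this contrast, and both calprotectin genes fell more than most of these markers. A lower ratio follows in part from that, so nothing more is read from it. With Ly6g included, the S100a8 groups overlapped and the difference was -2.65, and the Ltf difference was -0.65. Whether calprotectin transcripts fell beyond the number of neutrophils was not tested.

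**Figure D2:**
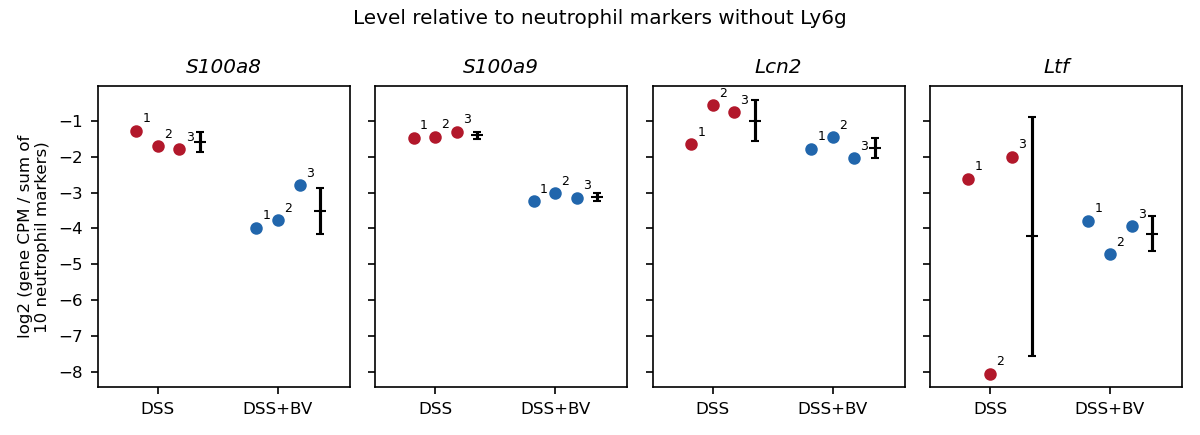
Log2 ratio of each gene's CPM to the summed CPM of 10 neutrophil markers without Ly6g, for each library (DSS red, DSS+BV blue, mouse numbers beside the points), with group mean and SD as black bars (n = 3). S100a9 lies near -1.40 in the DSS group and near -3.13 in the DSS+BV group with little spread, and DSS 2 stands alone for Ltf at -8.05.

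The granule genes of neutrophils differed widely in transcript level. The azurophil granule genes Mpo, Elane, Prtn3 and Ctsg, transcribed early in the bone marrow, stayed at or under 0.838 CPM in every library, and Elane had 0 counts in all 6. Among genes of the specific granule, which holds lactoferrin, Camp did not exceed 0.233 CPM and Ngp was at 1.198, 0.808 and 0.815 CPM in DSS 1, 2 and 3. Olfm4 stayed at or under 0.622 CPM, while Chil3 and Mmp8 were well above these levels in the DSS mice. Chil3, a chitinase-like protein, measured 22.9, 8.64 and 33.1 CPM there and was lowest in DSS 2, as Ltf was, although it ranged less widely. Mmp8 measured 10.4, 8.58 and 9.84 CPM in the same mice, close to level, while Ltf ranged over 91.2-fold among them.

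Differential expression of the related genes was assessed by the quasi-likelihood method of edgeR, adjusted over all tested genes (Benjamini-Hochberg), with calls made below an adjusted p of 0.05 at changes of more than 1 on the log2 scale. Of all tested genes, 0.0892% were called lower (13 genes) and 0 higher, with 1329 lower (9.12%) and 496 higher (3.4%) at an unadjusted p under 0.05. With DESeq2, the tool of the study, 2.07% were called, 1.78% lower and 0.291% higher. The median log2 fold change of all tested genes was -0.0105.

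Of 16 tested genes of the specific and gelatinase granules outside the members, edgeR called 2 lower and 0 higher (11 lower and 0 higher at an unadjusted p under 0.05), and 8 had lower groups without overlap. The list median was -1.25. Mmp8, the neutrophil collagenase, fell from 9.61 ± 0.941 to 0.474 ± 0.173 CPM (SD, n = 3 each; log2 fold change -4.32, edgeR adjusted p = 0.0179), and Mmp9, the gelatinase, fell from 12.3 ± 0.934 to 1.80 ± 0.100 CPM (log2 fold change -2.77, edgeR adjusted p = 0.0179). Chil3 had a log2 fold change of -4.05 without passing in edgeR (edgeR adjusted p = 0.113, DESeq2 adjusted p = 7.85e-10). Hp, which encodes haptoglobin, had -3.31 (edgeR adjusted p = 0.285, DESeq2 adjusted p = 0.00229). Cd177, a neutrophil surface protein that the colon also expresses, was at 160.4 ± 128.6 and 188.0 ± 91.2 CPM (SD, n = 3 each). Pglyrp1, a peptidoglycan recognition protein, had the highest mean over all 6 libraries in this list, at 308.6 ± 96.8 and 171.3 ± 36.1 CPM, which in the DSS+BV group was below the mean of Cd177. Arg2, an arginase, had the highest log2 fold change of the list, 1.59, with overlapping groups (edgeR adjusted p = 0.489).

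Of 17 tested genes of the mature neutrophil surface and cytosol, edgeR called 2 lower and 0 higher (13 lower and 0 higher at an unadjusted p under 0.05), and 13 had lower groups without overlap. The list median was -2.30, and all 17 log2 fold changes were below 0. Cxcr2, the receptor for neutrophil-attracting chemokines, fell from 7.69 ± 1.98 to 0.621 ± 0.132 CPM (SD, n = 3 each; log2 fold change -3.61, edgeR adjusted p = 0.0293), and Retnlg, a resistin-like protein, fell from 16.1 ± 3.58 to 1.70 ± 0.458 CPM (log2 fold change -3.24, edgeR adjusted p = 0.0293). The formyl peptide receptor Fpr2 had a log2 fold change of -2.98 (edgeR adjusted p = 0.222, DESeq2 adjusted p = 0.000876). DESeq2 called 14 genes of this list and 6 of the granule list, all lower. These edgeR calls rest on all 6 libraries, since leaving out any 1 of them left 0 calls in both lists, apart from Mmp8 without DSS+BV 1.

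**Figure D3:**
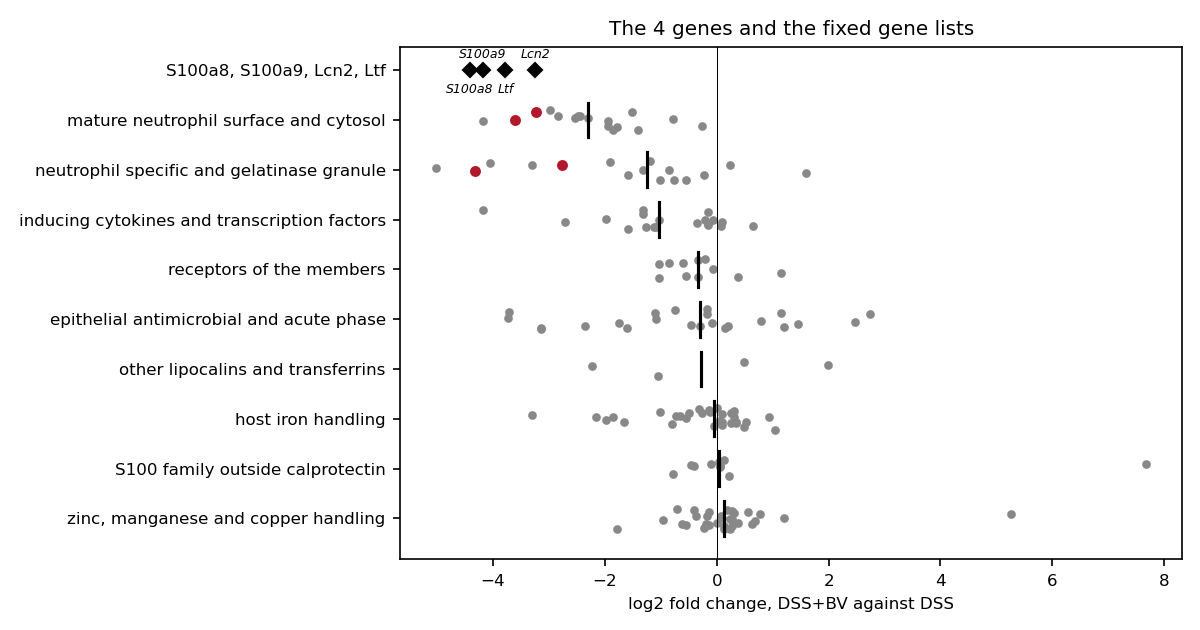
Log2 fold change (DSS+BV against DSS, edgeR) of the 4 genes (black diamonds) and of every tested gene of the related lists (grey points, or red where edgeR called the gene), with the list median as a black bar. The neutrophil lists have the lowest medians, -2.30 and -1.25, and the medians of the metal-handling and S100 lists lie near 0.

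Other S100 genes, calcium-binding proteins of the same family, were listed beside the calprotectin pair. Of 10 tested S100 genes outside calprotectin, edgeR called 0 in either direction (0 lower and 1 higher at an unadjusted p under 0.05), and the median log2 fold change was 0.05. S100a6, the most abundant by CPM, was at 776 ± 191 and 807 ± 198 CPM (SD, n = 3 each). S100a11, S100b and S100a1 had log2 fold changes of -0.41, -0.47 and 0.22, with overlapping groups. S100a4, which is known in myeloid and stromal cells, was at 14.9 ± 5.57 and 8.64 ± 6.28 CPM with overlapping groups. S100g, a vitamin D-dependent calcium-binding protein, was listed at 0.0599, 0 and 0.291 CPM in the DSS mice, against 0.660, 7.71 and 70.1 CPM in the DSS+BV mice (edgeR adjusted p = 0.283, DESeq2 adjusted p = 0.00518).

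Of the other lipocalins and transferrins, 4 of 23 listed genes were tested, and edgeR called 0 (2 lower and 0 higher at an unadjusted p under 0.05). Trf, the plasma transferrin related to lactoferrin, was at 97.2 ± 40.0 CPM with DSS alone and 46.9 ± 16.1 CPM with the bacterium (SD, n = 3 each; log2 fold change -1.05, edgeR adjusted p = 0.345), and its groups did not overlap. Apod, a lipocalin that carries lipids, was at 33.6 ± 16.1 and 7.14 ± 1.80 CPM (log2 fold change -2.23, edgeR adjusted p = 0.186, DESeq2 adjusted p = 0.000141). Ambp and Rbp4 had log2 fold changes of 1.99 and 0.50, with overlapping groups.

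The proteins act on host cells through receptors, which were listed next. Of 11 tested receptor genes, edgeR called 0 (3 lower and 0 higher at an unadjusted p under 0.05), DESeq2 called 1, and the median log2 fold change was -0.33. Tlr4, the receptor through which calprotectin can activate myeloid cells, measured 71.9, 54.2 and 72.5 CPM in the DSS mice, against 51.0, 43.1 and 37.2 CPM in the DSS+BV mice (log2 fold change -0.60, edgeR adjusted p = 0.329), so its groups did not overlap. Its co-receptors Ly96 and Cd14 had -0.56 and -0.86, and the adaptor Myd88 had -0.33, all with overlapping groups. Ager, the receptor for advanced glycation end products, was at 1.02 to 2.27 CPM with overlapping groups. Bsg, which encodes basigin, and Nptn, which encodes neuroplastin, had 0.37 and -0.07.

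Cd36, a scavenger receptor that binds calprotectin with fatty acids, was at 50.7 ± 16.7 and 24.9 ± 4.96 CPM (SD, n = 3 each; log2 fold change -1.02, edgeR adjusted p = 0.287, DESeq2 adjusted p = 0.0461). Slc22a17, a receptor for lipocalin-2, measured 7.90, 8.77 and 15.5 CPM in the DSS mice, against 4.68, 4.01 and 7.02 CPM in the DSS+BV mice (log2 fold change -1.03, edgeR adjusted p = 0.358). Lrp2, another lipocalin-2 receptor, did not exceed 0.124 CPM and was removed by the filter. Of the receptors that bind lactoferrin, Lrp1 was at 409 ± 50.1 and 353 ± 88.8 CPM (SD, n = 3 each) and Itln1 was at 0.116 to 2.09 CPM, both with overlapping groups.

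Cytokines, transcription factors and the feedback inhibitor Socs3, as known or possible regulators of the 4 genes, were listed together. Of 19 tested, edgeR called 0 (9 lower and 0 higher at an unadjusted p under 0.05), DESeq2 called 4 lower, 7 had lower groups without overlap, and the median log2 fold change was -1.03. Csf3, which encodes the neutrophil growth factor G-CSF, measured 2.57, 3.98 and 5.47 CPM in the DSS mice, against 0.330, 0.191 and 0.126 CPM in the DSS+BV mice (log2 fold change -4.17, edgeR adjusted p = 0.0828, DESeq2 adjusted p = 1.48e-07). Il6 and Osm, cytokines that signal through STAT3, had -2.71 and -1.98 (edgeR adjusted p = 0.222 and 0.245, DESeq2 adjusted p = 0.00196 and 0.0285). Il1b and Tnf had -1.59 and -1.03 without overlap between groups, and Il1a and Socs3 had -1.31 and -1.12 with overlap.

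Il22, which induces Lcn2 and S100 genes in colon epithelium, measured 2.34, 0 and 5.59 CPM in the DSS mice, against 7.65, 4.84 and 0.0632 CPM in the DSS+BV mice, a spread that covers both groups (edgeR adjusted p = 0.883). Il17a and Il17f stayed at or under 0.815 CPM in each library, as did Csf2, Ifng and Cebpe, and these were not tested. Of the C/EBP factors, Cebpb measured 33.6, 25.6 and 33.3 CPM in the DSS mice, against 12.3, 14.5 and 10.2 CPM in the DSS+BV mice (log2 fold change -1.32, edgeR adjusted p = 0.123, DESeq2 adjusted p = 1.62e-05). Cebpd was at 94.5 ± 33.5 and 44.3 ± 14.3 CPM (SD, n = 3 each; log2 fold change -1.09, edgeR adjusted p = 0.332), and Cebpa was at 35.8 ± 0.774 and 38.3 ± 7.76 CPM. Stat3, Nfkbiz, Nfkb1, Nfkb2, Rela, Gfi1 and Runx1 had log2 fold changes between -0.36 and 0.08, and the myeloid factor Spi1 had -1.27, all with overlapping groups.

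Lipocalin-2 and lactoferrin act on iron, so host iron genes were listed. Of 31 tested, edgeR called 0 (7 lower and 2 higher at an unadjusted p under 0.05), DESeq2 called 5 lower and 0 higher, and the median log2 fold change was -0.05. Hmox1, the inducible haem oxygenase, measured 37.6, 31.2 and 44.5 CPM in the DSS mice, against 14.5, 11.2 and 10.2 CPM in the DSS+BV mice (log2 fold change -1.66, edgeR adjusted p = 0.0833, DESeq2 adjusted p = 3.23e-08). Steap4, a metalloreductase induced by inflammation, had -2.16 (edgeR adjusted p = 0.121), Cd163, the haemoglobin-haptoglobin scavenger receptor of macrophages, had -1.98 (edgeR adjusted p = 0.189), and Cp, which encodes the ferroxidase ceruloplasmin, had -1.85 (edgeR adjusted p = 0.245). These and Hp were the genes that DESeq2 called.

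Hp, whose product captures haemoglobin, measured 42.1, 82.1 and 68.0 CPM in the DSS mice, against 7.59, 11.3 and 0.569 CPM in the DSS+BV mice. Of the core transport and storage genes, the transferrin receptor Tfrc had a log2 fold change of 0.25, the iron exporter Slc40a1 had 0.01 and the ferritin heavy chain Fth1 had -0.15, all with overlapping groups. Slc11a2, the apical iron importer, had 0.93 and did not overlap (edgeR adjusted p = 0.398), with most of the difference in DSS+BV 3, at 207.1 CPM. Slc39a8, a transporter of manganese, zinc and iron, had 1.04 with overlap.

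**Figure D4:**
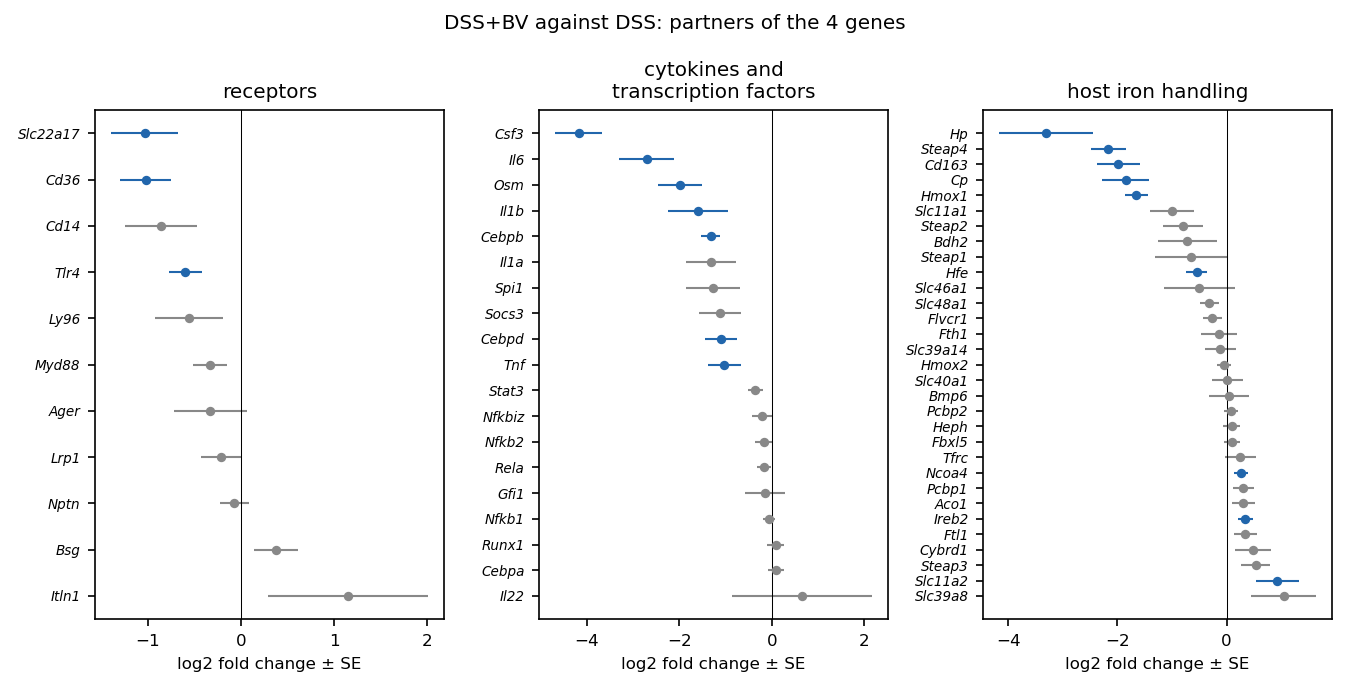
Log2 fold change ± standard error (DSS+BV against DSS, edgeR, n = 3 per group) of the tested receptor genes, the list of cytokines and transcription factors, and host iron genes. Genes whose groups did not overlap are in blue and the others in grey. Csf3, at -4.17, lies farthest below 0, and none of the genes drawn passed the edgeR thresholds.

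Of 31 tested zinc, manganese and copper genes, edgeR called 0 (3 lower and 3 higher at an unadjusted p under 0.05), DESeq2 called 1 in each direction, and the median log2 fold change was 0.12. The metallothioneins Mt1 and Mt2, which bind zinc inside cells, were at 203 ± 96.7 and 232 ± 153 CPM with DSS alone and at 104 ± 23.4 and 67.1 ± 13.1 CPM with the bacterium (SD, n = 3 each). Their log2 fold changes were -0.96 and -1.79 (edgeR adjusted p = 0.364 and 0.280), and their groups did not overlap. DESeq2 called Mt2 (DESeq2 adjusted p = 0.00692). The zinc importer Slc39a4 was at 224 ± 28.5 and 293 ± 47.2 CPM with overlapping groups. The zinc transporters Slc39a6 and Slc39a5 had log2 fold changes of -0.70 without overlap and 1.21 with overlap (edgeR adjusted p = 0.406 and 0.459). Slc30a10, a manganese exporter, measured 0.0599, 4.79 and 1.81 CPM in the DSS mice, against 8.44, 68.6 and 178.0 CPM in the DSS+BV mice (log2 fold change 5.26, edgeR adjusted p = 0.296, DESeq2 adjusted p = 0.0326).

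Lcn2 is also an epithelial gene, so it was set beside epithelial defence genes. Of 23 tested, edgeR called 0 (7 lower and 2 higher at an unadjusted p under 0.05), DESeq2 called 7 lower and 1 higher, and the median log2 fold change was -0.31. Nos2, the inducible nitric oxide synthase, measured 146.3, 128.1 and 358.0 CPM in the DSS mice, against 33.8, 8.03 and 5.75 CPM in the DSS+BV mice (log2 fold change -3.73, edgeR adjusted p = 0.220). Saa3, an acute-phase apolipoprotein, had -3.71 (edgeR adjusted p = 0.135), and Duox2 and Duoxa2, the epithelial peroxide-generating oxidase and its maturation factor, had -1.09 and -1.61 (edgeR adjusted p = 0.218 and 0.173). The groups of these 4 genes did not overlap, and DESeq2 called all 4 lower. Ang4, an antimicrobial ribonuclease of secretory epithelium, was at 4.42 ± 3.13 and 24.5 ± 11.6 CPM (SD, n = 3 each). Its log2 fold change was 2.47 (edgeR adjusted p = 0.245, DESeq2 adjusted p = 0.00106). Reg4, a secreted lectin, had the highest log2 fold change of the list, 2.75, at 59.6, 17.2 and 11.2 CPM in the DSS mice, against 54.5, 495.2 and 40.8 CPM in the DSS+BV mice, with most of the difference in DSS+BV 2 (edgeR adjusted p = 0.398). Dmbt1, a mucosal scavenger protein and the most abundant of the list, had -0.09. Relative to the summed epithelial markers, Lcn2 was lower in every DSS+BV mouse, with a difference of mean log2 ratios of -4.11. Without Muc2, the most abundant of these markers, the difference was -3.99. The separation follows from the parts of the ratio, since Lcn2 was lower and the epithelial sum higher, each without overlap, so nothing more is read from it.

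The genes whose profile over the 6 libraries was most like each member were found by the root-mean-square distance between log2 CPM values centred on each gene's mean, over all tested genes. The measure includes the difference between the groups on which the members were chosen. S100a8 and S100a9 were 0.410 apart, Lcn2 was 0.878 from S100a8 and 0.570 from S100a9, and Ltf was 1.995 to 2.08 from each of the others. Within the DSS group Lcn2 and S100a8 had different orders, since DSS 1 was the highest for S100a8 and the lowest for Lcn2.

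Nearest to S100a8 was Mmp8, at 0.253, followed by Cxcr2, Chil3, Wfdc12 and Csf3. Nearest to S100a9 was also Mmp8, at 0.312, followed by Csf3, Cxcl2, the stromelysin Mmp3 and Acat3. Nearest to Lcn2 were Cxcl2, at 0.241, Csf3, Cxcl3, Retnlg and Trem1, with Cxcl2 and Cxcl3 encoding neutrophil-attracting chemokines and Trem1 a myeloid activating receptor. Cxcl2 measured 6.23, 10.3 and 10.8 CPM in the DSS mice, against 0.792, 0.956 and 0.316 CPM in the DSS+BV mice.

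Ltf kept other company. Its nearest genes were Wfdc18, at a distance of 0.488, Il5ra, Krt90, Khdc1a and Trim10. Wfdc18, a small secreted protein of the WAP family, measured 87.2, 4.601 and 107.8 CPM in the DSS mice, against 11.8, 5.86 and 4.99 CPM in the DSS+BV mice. Il5ra, the alpha subunit of the interleukin-5 receptor, was at 24.0, 1.62 and 29.6 CPM in the DSS mice and at 2.77, 1.02 and 0.695 CPM in the DSS+BV mice. The keratin Krt90 was at 26.7, 0.0622 and 12.8 CPM in the DSS mice and at 2.11, 0.382 and 0.253 CPM in the DSS+BV mice. These 3 genes, like Ltf, were far lower in DSS 2 than in DSS 1 and DSS 3.

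**Figure D5:**
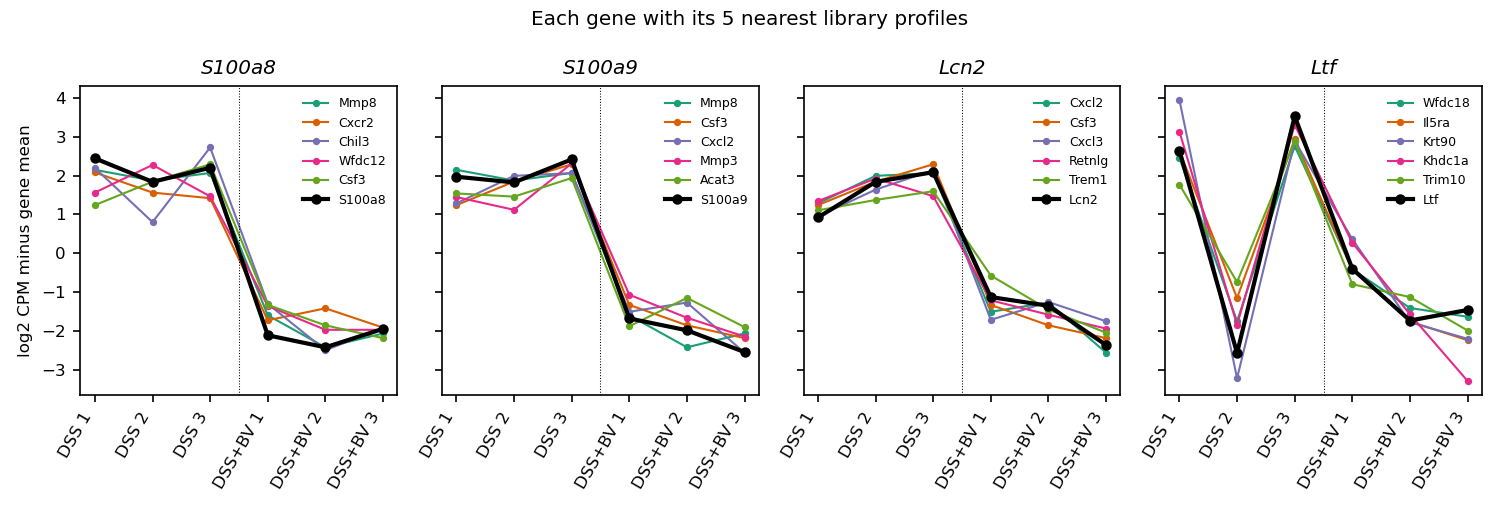
Log2 CPM minus the gene's mean over the 6 libraries, for each of the 4 genes (black) and its 5 nearest tested genes by root-mean-square distance (colours), with DSS libraries left of the dotted line and DSS+BV libraries right of it. Lines join the libraries of 1 gene and the mice have no order. The panels of S100a8, S100a9 and Lcn2 step down between the groups, and that of Ltf drops at DSS 2.

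Squamous epithelium of the anal canal and eosinophils can also express members or neighbours of this set, so their markers were checked. Of 12 squamous markers, 11 were in the table and their sum was 8.92 to 10.4 CPM in the DSS group and 6.24 to 7.52 CPM in the DSS+BV group, without overlap. Most of it was Sbsn, at 3.83, 8.08 and 5.77 CPM in the DSS mice, and Krt10, at 1.32, 1.62 and 2.21 CPM. Neither was lowest in DSS 2. Krt5, Krt4 and Krt1 were at or under 0.126 CPM in every library. Of the others, Dsg3 measured 1.32, 0 and 0.408 CPM in the DSS mice, and Trp63 measured 0.659, 0 and 0.175 CPM. Krt6a measured 0.419, 0 and 0.466 CPM, Krt13 measured 0.599, 0.187 and 0.582 CPM and Krt14 measured 0.599, 0.311 and 0.582 CPM. Among the DSS mice these were lowest in DSS 2, as Ltf and Krt90 were, at levels of few counts. Krt13 was highest in DSS+BV 1, at 1.45 CPM. The 6 eosinophil markers summed to 1.92 to 7.98 CPM and 3.83 to 4.93 CPM, with 1.92, 6.78 and 7.98 CPM in DSS 1, 2 and 3. The 11 macrophage and monocyte markers summed to 572 to 1221 CPM in the DSS group and 320.4 to 738.5 CPM in the DSS+BV group, which overlapped, and 11 of 11 had log2 fold changes below 0. Endothelial markers summed to 319.3 to 435.3 CPM and 221.2 to 292.0 CPM without overlap, and the sums of B and plasma cell, T cell and smooth muscle markers overlapped between groups. The part of these cells in the members' levels was not tested.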

How the data were processed

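Colon RNA of 3 DSS and 3 DSS+BV mice was analysed. The authors quantified genes with RSEM and deposited expected counts per gene, not scaled between libraries; the submitters' processing notes also name HISAT2 2.1.0, Bowtie2 2.2.5, RSEM 1.2.8 and GRCm38.p6. Expected counts were rounded. Genes were filtered with filterByExpr (minimum count 10, minimum total 15), scaled with TMM factors and compared with glmQLFTest of edgeR 4.0.16 (R 4.3.3), with Benjamini-Hochberg adjustment. Standard errors are the log2 fold change over the root of F. Log2 CPM used a prior count of 2. Alternatives were DESeq2 1.42.0, voom of limma 3.58.1, other scaling factors and filters, a robust fit, the replicate number as a block, and each library left out. The fit was tested on simulated data.

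The 4 members and the gene and marker lists were chosen with earlier results of these data known. Named genes are the members, list genes called by edgeR, the most abundant and most changed genes of each list (3 with the lowest and 2 with the highest log2 fold change at a mean of at least 1 CPM), the receptors, the cytokines and transcription factors, each member's 5 nearest profiles and markers. Other genes named from the lists were chosen after their values were seen. P-values measure the spread between 3 mice per group. Counts below 3 are near the limit of detection, 0.175 to 0.198 CPM. Figures were drawn with matplotlib 3.10.9. The authors' protein, qPCR and metabolite measurements were not used here.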

Additional observations from a re-analysis of the deposited data

How the results depend on the processing

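The log2 fold changes of the 4 members kept their direction under every alternative and moved by less than the spread between mice. With 1 library left out they ran from -4.55 to -4.27 for S100a8, -4.40 to -3.97 for S100a9, -3.52 to -2.95 for Lcn2 and -4.35 to -2.87 for Ltf, whose spread within groups was 2.38 on the log2 scale. Counts of called genes depended on the tool and on single libraries, and the cause was not tested. The 13 genes called lower over all tested genes became 281 with DESeq2, 0 with the replicate number as a block and 0 to 3 with 1 library left out, and the 0 called higher became 46 with DESeq2 and 0 to 4. DESeq2 called 1 gene of the other S100 genes, 1 of the other lipocalins and transferrins, 1 receptor, 5 iron genes, 2 zinc, manganese and copper genes, 4 cytokines and transcription factors, 6 granule genes, 14 mature neutrophil genes and 8 epithelial defence genes. The granule list had 0 calls with the replicate block and 0 to 1 with 1 library left out, and the mature neutrophil list had 0 with limma-voom, 0 with the replicate block and 0 with any 1 library left out. Same-numbered mice did not all deviate together (correlations across genes of 0.267, 0.255 and -0.296), and differently numbered mice gave -0.572 to 0.484. With 3 mice per group these values cannot settle whether the numbers mark a pairing. The main fit did not use the numbers. The Ltf ratio to the neutrophil marker sum differed by -0.65 between groups and by 0.0785 without Ly6g, a reversed sign beside SDs of 2.27 and 1.595. With a prior count of 0.5, 3 of the 5 nearest genes of S100a8 were shared. Medians of the neutrophil lists stayed at -1.25 and -2.30 with genes of 3 or fewer counts in a group set at their bound. For 4 ratios (Lcn2 to S100a9, Ltf to S100a8, Ltf to Lcn2 and Lcn2 to epithelial markers) an alternative was chosen after seeing the data and kept the direction. Depth limits the DSS+BV values of Ltf, which rest on 12 to 32 counts. It also limits those of Csf3 (5, 3 and 2 counts), Mmp8 (10, 5 and 7) and Cxcr2 (9, 12 and 8). Wfdc12 and Acat3, among the nearest profiles, were at or under 0.191 CPM in the DSS+BV mice, near the limit of detection.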

Other observations

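The division of the DSS mice seen for Ltf was also present in other secreted defence genes of the epithelial list, chosen after their values were seen. Slpi, a secreted protease inhibitor, measured 266.6, 20.9 and 225.3 CPM in the DSS mice, against 114.4, 36.1 and 2.28 CPM in the DSS+BV mice. Reg3b, an antibacterial lectin, ran the other way, at 10.8, 669.5 and 31.9 CPM in the DSS mice, against 20.4, 831.0 and 1096 CPM in the DSS+BV mice, and Reg3g was at 4.19, 201.1 and 10.3 CPM and at 5.87, 174.6 and 313.0 CPM. Neither lectin separated the groups (edgeR adjusted p = 0.750 for Reg3b and 0.787 for Reg3g), and DSS 2 lay with DSS+BV 2 and DSS+BV 3 in both.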
